A study of Mus musculus with 6 samples.

Results

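The secreted Wnt antagonists are a group of extracellular proteins that keep Wnt ligands from signalling, and their genes were followed here in mouse dermal fibroblasts with and without LAP2alpha. The genes were taken by symbol, and of 10 named genes 8 were analysed among 28293 genes in all: Sfrp1, Sfrp2, Sfrp4, Frzb, Dkk2, Dkk3, Notum and Kremen1. Dkk1 and Wif1 were not analysed here. The RNA came from a dermal fibroblast cell line in 2 groups, wild type (WT, 3 libraries) and Lap2alpha KO (KO, 3 libraries), both grown in serum-containing DMEM with no further treatment given in the labels. LAP2alpha, a product of Tmpo, is a nuclear protein that binds A-type lamins away from the nuclear membrane. The labels do not say how the knockout was made, whether a group is 1 clone, or whether replicates were separate cultures, so p-values reflect the spread among the libraries, which may be technical.

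Wnt proteins are lipid-modified ligands that bridge a Frizzled receptor and the co-receptor LRP5 or LRP6, which stabilises beta-catenin, or act through Ror and Ryk receptors without it. The antagonists act at different points. The Sfrp proteins and Frzb carry a cysteine-rich domain like that of Frizzled and bind the Wnt ligand itself, Dkk1 and Dkk2 bind LRP5 and LRP6, and Notum is a secreted enzyme that removes the lipid from Wnt. Kremen1 is not secreted: it is a membrane protein that binds Dkk proteins together with LRP6. Dkk3 is a distant relative of the other Dkk proteins whose part in Wnt signalling is less settled. In skin, Wnt signals act in hair follicle formation and in dermal fibroblasts.

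The libraries held 22159339 to 27281473 counts. The Pearson correlation of log2(CPM + 1), where CPM is a gene's counts divided by the library total and multiplied by 1e+06, was 0.998 to 0.999 within groups and 0.971 to 0.973 between them. Mitochondrially encoded genes took 1.99 to 2.45% of the counts in WT and 3.76 to 4.46% in KO. With them left out of the fit, the same number of antagonist genes (7) was called higher in KO. The log2 fold change was then 1.51 for Sfrp2 (1.51 with them) and 0.55 for Kremen1 (0.54 with them). Any other part of theirs in the results below was not tested. Tmpo, whose count sums all LAP2 isoforms, stood at 252 ± 2.65 CPM in WT and 129 ± 6.81 CPM in KO (SD, n = 3). Of the 10 fibroblast markers listed, 9 rose in KO and Thy1 fell, while 37.7% of all tested genes rose and 37.5% fell. Lum, 1 of the 9, had 5 counts over WT and 182 over KO and passed the low-count filter only through the KO libraries. The summed level of the 10 was 5890 to 6289 CPM in WT and 22652 to 24076 CPM in KO. Of 38 markers of other skin, blood, muscle and skeletal cells, 27 were analysed and 11 passed the low-count filter, of which 5 rose and 5 fell. Csf1r and Rgs5 rose but passed only through the KO libraries, and Cdh5 fell but passed only through the WT libraries. The summed level of the 27 was 20.6 to 24.1 CPM in WT and 26.6 to 28.3 CPM in KO. Of the 27, only Ptprc, Epcam and Mlana were at 0 counts in all KO libraries, and their WT counts summed to 1, 3 and 5. They do not stand for their lists. Csf1r, Cd68 and Krt14 had 16, 49 and 2 counts over WT and 190, 75 and 4 over KO. Krt10, Cdh1 and Dct of the same lists fell. The part of the marker changes in the results below was not tested. In bulk RNA, fewer cells of a type and less RNA per cell cannot be told apart.

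Promoter sequences are shown for the genes that RefSeq's table (build GRCm38.p6) held, Sfrp2 and Dkk2, which rose together, and Frzb, which was barely detected in either group. Each runs 5′ to 3′ on the gene's own strand from 250 bases before RefSeq's annotated start to 50 bases after it, and capitals mark CpG dinucleotides.
Sfrp2 at chr3:83766071-83766370, plus strand: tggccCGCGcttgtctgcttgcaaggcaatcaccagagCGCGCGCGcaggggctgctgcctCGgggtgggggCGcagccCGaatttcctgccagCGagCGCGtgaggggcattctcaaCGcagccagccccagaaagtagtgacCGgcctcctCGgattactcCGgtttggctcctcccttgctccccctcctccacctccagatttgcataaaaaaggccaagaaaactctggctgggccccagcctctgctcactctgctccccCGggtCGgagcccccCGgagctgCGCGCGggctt
Dkk2 at chr3:132085042-132085341, plus strand: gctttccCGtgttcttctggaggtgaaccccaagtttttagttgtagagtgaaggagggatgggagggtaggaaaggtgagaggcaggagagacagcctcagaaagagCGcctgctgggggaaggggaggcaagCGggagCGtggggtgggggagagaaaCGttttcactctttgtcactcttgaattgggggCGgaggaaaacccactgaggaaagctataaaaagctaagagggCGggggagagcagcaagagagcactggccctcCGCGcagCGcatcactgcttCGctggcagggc
Frzb at chr2:80447347-80447646, minus strand: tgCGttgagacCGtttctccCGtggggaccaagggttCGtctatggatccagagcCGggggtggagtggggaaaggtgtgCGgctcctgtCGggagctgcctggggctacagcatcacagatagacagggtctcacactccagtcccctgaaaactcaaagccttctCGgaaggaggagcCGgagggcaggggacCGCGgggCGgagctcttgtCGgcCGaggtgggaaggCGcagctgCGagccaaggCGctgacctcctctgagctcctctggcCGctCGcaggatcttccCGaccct
The starts of Sfrp2 and Dkk2 are the same in GENCODE, but GENCODE begins Frzb 229 bases further upstream, so most of the Frzb window lies inside that gene model.
The Sfrp2 window held 22 CpGs with 66.0% G+C, the Frzb window 20 CpGs with 64.7%, and the Dkk2 window 11 CpGs with 57.7%. The median of 32851 promoter windows was 7 CpGs and 52.7% G+C. The abundant gene and the nearly silent one thus had windows of like CpG content. The letters CTTTG followed by a pair of bases that are each A or T, which TCF/LEF factors can bind, were searched on both strands and were in none of the 3 windows, while 16.9% of all windows held them. TATAAA, also searched on both strands and not overlapping the other letters, was in the Dkk2 window only, with its first base 32 bases before the start, and in 13.6% of all windows.

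All 5 antagonist genes with more than the filter's level in both groups rose in KO. They were Sfrp1, Sfrp2, Dkk2, Dkk3 and Kremen1, with fitted increases of 1.46-fold (Kremen1) to 3.14-fold (Sfrp1). Sfrp4 and Notum rose as well, but they passed the filter (about 0.382 CPM in a group's libraries) only through the KO libraries, so they could hardly enter the test without differing. Frzb did not pass and was not tested. Rising means an adjusted p under 0.05 in edgeR's quasi-likelihood test with Benjamini-Hochberg adjustment over all 15081 tested genes. By this rule 37.7% of tested genes were higher and 37.5% lower in KO, 75.1% in all, so a call by itself was common. That share can be set beside the 5 genes but not beside Sfrp4 and Notum, for which the filter all but fixed the direction. The median log2 fold change of the 5 genes was 0.92, and that of all tested genes was 0.01. Of the 5 genes, Sfrp1 and Sfrp2 were called with increases of at least 2-fold, as were 16.7% of all tested genes. Every KO library lay above every WT library for each of the 5, and for 42.2% of tested genes.

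**Figure D1:**
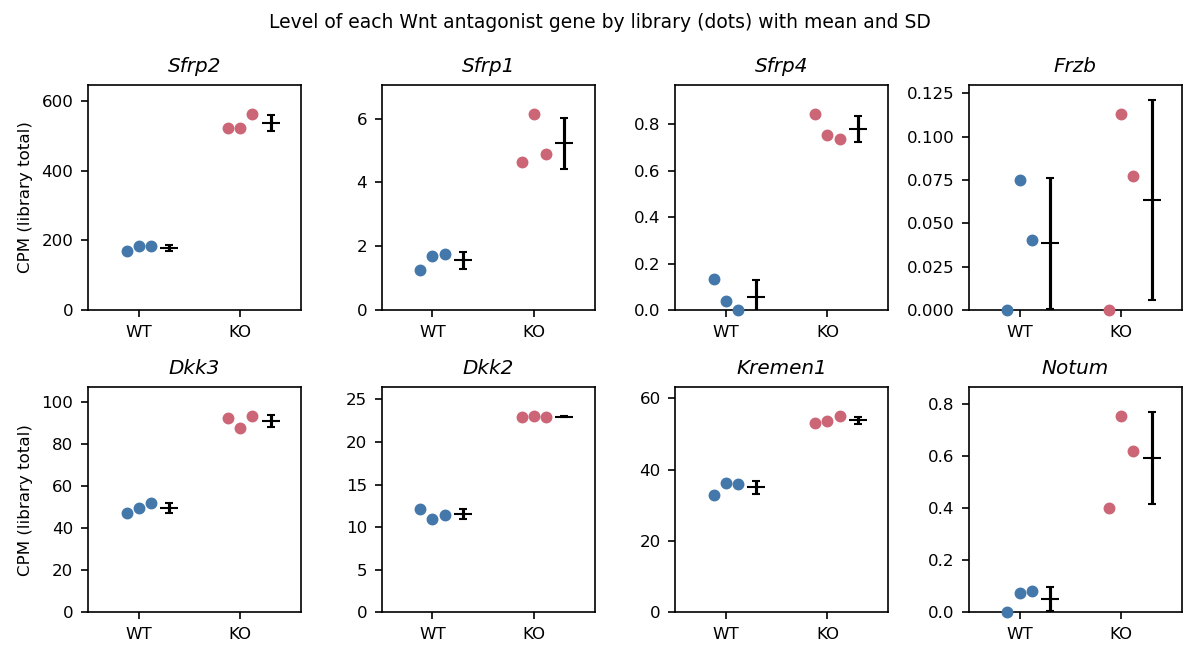
Level of each antagonist gene in CPM of the library total (vertical axes, each from 0) in the 3 WT and 3 KO libraries (dots), with the mean and SD beside them. In 7 of the 8 panels every KO dot lies above every WT dot, and in the Frzb panel the groups overlap. Among all tested genes 42.2% had every KO library above every WT library. Sfrp4 and Notum were tested only through the KO libraries, so that share cannot be set beside them.

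Sfrp2 was by far the most abundant of these genes, also per length of exon. Sfrp2 (ENSMUSG00000027996) lies on chromosome 3 at 83766321 to 83774316 on the plus strand of GRCm38, and its level was 169, 183 and 183 CPM in the WT libraries and 521, 523 and 562 CPM in the KO libraries. The groups were far apart, and the spread within each was small. The log2 fold change was 1.51 (SE 0.0569, edgeR adjusted p = 5.2e-09), and 9.99% of tested genes had a larger one. An annotated RNA on the other strand, Gm26771, covers 16.1% of the exonic sequence of Sfrp2, and reads of this stretch cannot be assigned to a strand here. Gm26771 held 23 counts over the WT libraries and 39 over the KO libraries, and Sfrp2 held 13132 and 42558.

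Its relatives were present at much lower levels. Sfrp1 (ENSMUSG00000031548, chromosome 8 at 23411502 to 23449632, plus strand) stood at 1.26, 1.69 and 1.74 CPM in WT and at 4.66, 6.15 and 4.89 CPM in KO. Its log2 fold change was 1.65 (SE 0.176, edgeR adjusted p = 1.0e-05). The fold changes of Sfrp1 and Sfrp2 were thus close, and the ratio of Sfrp2 to Sfrp1, computed per kilobase of exon, overlapped between the groups (213 to 272 in WT, 173 to 233 in KO).

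Sfrp4, whose product is known from bone and from phosphate handling, was near silent in WT. Sfrp4 (ENSMUSG00000021319, chromosome 13 at 19623104 to 19632994, plus strand) had 3, 1 and 0 counts in the WT libraries and 23, 20 and 19 counts in the KO libraries. From the summed counts the level was 14.3-fold higher in KO, with a 95% exact (Clopper-Pearson) interval of 5.31 to 54.1 that covers counting error only. The fitted log2 fold change was 3.65 (SE 0.551, edgeR adjusted p = 0.00014), and 4.93 without WT replicate 1, which held most of the WT counts. Frzb (ENSMUSG00000027004, chromosome 2 at 80411970 to 80447625, minus strand) had 0, 2 and 1 counts in WT and 0, 3 and 2 in KO. The groups overlapped, and the ratio of 1.54 had a counting interval of 0.299 to 9.90, so no difference was detectable at this depth.

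Both Dkk genes analysed rose. Dkk3 (ENSMUSG00000030772, chromosome 7 at 112116017 to 112159057, minus strand) stood at 47.2, 49.6 and 51.99 CPM in WT and at 92.4, 88.05 and 93.4 CPM in KO, and its log2 fold change was 0.80 (SE 0.0562, edgeR adjusted p = 3.8e-07). Dkk2 (ENSMUSG00000028031, chromosome 3 at 132085292 to 132180304, plus strand) stood at 12.1, 10.96 and 11.4 CPM in WT. Its KO libraries were nearly equal at 22.9, 23.04 and 22.9 CPM, and the log2 fold change was 0.92 (SE 0.0726, edgeR adjusted p = 9.5e-07). Neither gene's groups overlapped. The ratio of Dkk3 to Dkk2 per kilobase was 4.29 to 5.01 in WT and 4.22 to 4.49 in KO, which overlap, so the difference between their fold changes did not exceed the spread between libraries.

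Kremen1, the membrane partner of the Dkk proteins, had the smallest fitted fold change of the 7 tested genes. Kremen1 (ENSMUSG00000020393, chromosome 11 at 5191552 to 5261558, minus strand) was at 32.9, 36.2 and 35.9 CPM in WT and at 53.0, 53.5 and 54.99 CPM in KO. The log2 fold change was 0.54 (SE 0.0572, edgeR adjusted p = 9.2e-06), and 28.01% of tested genes had a larger one. The ratio of Dkk2 to Kremen1 per kilobase was 0.630 to 0.769 in WT and 0.869 to 0.901 in KO, so Dkk2 gained on Kremen1 in every KO library. With 3 libraries against 3 an exact permutation test cannot give a two-sided p below 0.1, and no test is given for the ratios. Lrp6, the co-receptor that Dkk and Kremen proteins share, rose by a similar amount (log2 fold change 0.53), and the ratio of Kremen1 to Lrp6 overlapped between the groups (1.01 to 1.199 in WT, 0.963 to 1.22 in KO).

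Notum was detected almost only in KO, at a low level. Notum (ENSMUSG00000042988, chromosome 11 at 120653788 to 120661175, minus strand) had 0, 2 and 2 counts in WT and 11, 20 and 16 in KO. The ratio of summed counts was 10.8 (counting interval 3.96 to 41.4), and the fitted log2 fold change was 3.25 (SE 0.590, edgeR adjusted p = 0.00052). Annotated genes on the other strand, Notumos and Myadml2os, cover 38.1% of the exonic sequence of Notum. Notumos had 3 counts over the WT libraries and 15 over the KO libraries. The strand setting of the counting is not known here, so the reads of Notum and of its antisense partners cannot be told apart.

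**Figure D2:**
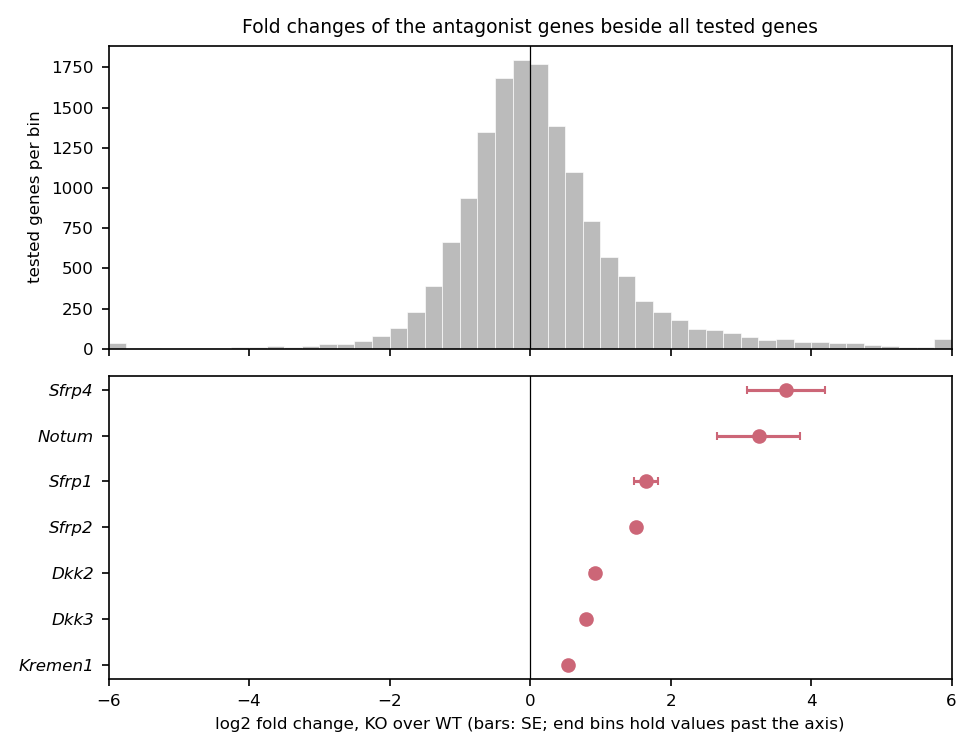
Lower part: fitted log2 fold change, KO over WT, of the 7 tested antagonist genes (dots) with the SE (bars). Upper part: the same quantity for the 15081 tested genes in bins, the end bins holding genes beyond the axis. The 5 genes above the filter's level in both groups lie between 0.54 and 1.65, right of the median of all tested genes (0.01). Sfrp4 (3.65) and Notum (3.25) were tested only through the KO libraries, so the median cannot be set beside them.

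Scaled for exon length, as counts per kilobase of exon on the same CPM scale (RPKM), the order of the 8 genes was the same in both groups: Sfrp2, Dkk3, Kremen1, Dkk2, Sfrp1, Notum, Sfrp4 and Frzb. Sfrp2 had 82.9 ± 3.71 RPKM in WT and 249 ± 10.8 RPKM in KO (SD, n = 3), and only 5.62% and 1.72% of tested genes had a higher value. Dkk3 followed at 14.8 ± 0.712 RPKM in WT and 27.2 ± 0.855 RPKM in KO. Kremen1 had 4.53 ± 0.239 and 6.97 ± 0.134 RPKM. It stood just above Dkk2, at 3.11 ± 0.160 and 6.197 ± 0.0187 RPKM. Sfrp1 was at 0.358 ± 0.0604 RPKM in WT and 1.196 ± 0.183 RPKM in KO. Neighbours in the order did not overlap between libraries, apart from Notum and Sfrp4 in both groups and Sfrp4 and Frzb in WT.

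Sfrp2 took a larger share of the group's RNA in KO. It made up 78.2 to 78.8% of the summed RPKM of the 8 genes in the WT libraries and 85.2 to 85.9% in the KO libraries. The share of Dkk3 was 13.7 to 14.2% in WT and 9.16 to 9.69% in KO, and that of Kremen1 was 4.24 to 4.35% in WT and 2.34 to 2.44% in KO. None of these ranges overlapped. The ratio of Sfrp2 to Dkk3 per kilobase was 5.50 to 5.75 in WT and 8.79 to 9.39 in KO. The summed RPKM of the 8 genes was 106 ± 4.52 in WT and 291 ± 11.4 in KO (SD, n = 3). Over the same libraries the 14 Wnt ligand genes analysed summed to 6.34 ± 0.458 and 17.2 ± 0.823 RPKM, and 9 Frizzled genes to 30.2 ± 0.487 and 59.8 ± 1.13 RPKM. Each of these sums was higher in KO, with no overlap between groups, but each was carried by few genes. Wnt10b alone stood at 5.43 RPKM in WT and 13.1 RPKM in KO. Fzd1 (8.33 and 21.2 RPKM) and Fzd2 (11.5 and 26.1 RPKM) led the Frizzled sum, while Fzd3, Fzd4 and Fzd6 fell. The sums thus do not show a rise of each class gene by gene.

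Calls among the other genes of the pathway went both ways, but no agonist, ligand or ligand secretion gene was called lower. Beside their counts stand the shares of all tested genes (37.7% higher, 37.5% lower), apart from genes tested only through the KO libraries. Of the other extracellular modulators 7 of 13 were analysed and 5 tested, of which 4 rose and Gpc4 fell. Draxin, 1 of the 4, was under the filter's level in WT and was tested only through the KO libraries. Gpc6, a cell-surface heparan sulfate proteoglycan, rose from 6.91 ± 0.926 to 56.3 ± 2.85 CPM (n = 3), and its relative Gpc4 fell from 57.03 ± 1.87 to 37.5 ± 0.602 CPM. Igfbp4, which binds insulin-like growth factors, rose from 7.78 ± 0.731 to 43.2 ± 0.496 CPM. Kremen2, the paralogue of Kremen1, had 3 counts over WT and 0 over KO and was not tested. The R-spondins, secreted proteins that strengthen Wnt signals, were also higher: Rspo2 rose from 2.36 ± 0.367 to 12.1 ± 1.11 CPM, and Rspo3, tested only through the KO libraries, had 2 counts over the WT libraries and 168 over the KO libraries.

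Of 19 Wnt ligand genes 14 were analysed and only 5 tested, of which Wnt2b, Wnt4, Wnt5a and Wnt10b rose and Wnt9a was not called (log2 fold change −0.45). Wnt2b and Wnt4 were under the filter's level in WT and were tested only through the KO libraries. Wnt10b, the most abundant ligand gene by CPM, rose from 18.5 ± 1.22 to 44.4 ± 2.86 CPM (n = 3). Wnt5a, a ligand best known for beta-catenin-independent signalling, rose from 2.98 ± 0.456 to 8.75 ± 0.516 CPM. Wnt4 had 2 counts over the WT libraries and 835 over the KO libraries. Both genes that ligands need for secretion rose: Wls, the carrier of Wnt to the cell surface, from 223 ± 8.39 to 685 ± 42.7 CPM, and Porcn, which attaches the lipid that Notum removes, from 0.755 ± 0.134 to 2.69 ± 0.517 CPM.

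Receptors and co-receptors went both ways, with 12 of 17 tested genes higher and 5 lower. The shares of all tested genes (37.7% higher, 37.5% lower) can be set beside these counts only without Ror1 and Ror2. Lrp4, a relative of Lrp5 and Lrp6, rose from 5.98 ± 0.987 to 143 ± 5.71 CPM (n = 3). The Wnt5a receptor genes Ror1 and Ror2 rose too, with log2 fold changes of 5.60 and 6.28, but were likewise tested only through the KO libraries. The 5 that fell were Fzd3 (−0.98), Fzd4 (−2.21), Fzd6 (−1.04), Lrp5 (−0.63) and Lgr6 (−2.95). The targets of Dkk2 thus moved apart, with Lrp6 higher and Lrp5 lower. In the beta-catenin core 10 of 16 genes rose, 5 fell (Axin1, Gsk3a, Dvl1, Btrc and Pygo2, from −0.67 to −0.32) and Tcf7l2 was not called (−0.02). Only 8 rose without WT replicate 2, WT replicate 3 or KO replicate 1, since Gsk3b and Csnk1a1 then missed the threshold. Among the transcription factors of the pathway Tcf7l1 rose from 7.17 ± 0.370 to 35.9 ± 2.42 CPM and Tcf7 from 0.452 ± 0.0414 to 8.07 ± 1.06 CPM. Bcl9, a beta-catenin co-activator, rose from 15.2 ± 0.406 to 33.98 ± 1.84 CPM.

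Among genes that beta-catenin signalling is known to induce, calls went both ways, near the shares of all tested genes (37.7% higher, 37.5% lower). Of 12 such genes 9 were analysed and 6 tested: Axin2 and Apcdd1 rose, Znrf3, Ccnd1 and Myc fell, and Bambi was not called (log2 fold change 0.16), though it was with upper-quartile scaling or library totals alone, which made 3 higher. Axin2, a scaffold of the beta-catenin destruction complex, was low and rose from 0.434 ± 0.0848 to 1.497 ± 0.0903 CPM (n = 3). Myc fell from 111 ± 1.28 to 50.1 ± 1.76 CPM, and the cyclin gene Ccnd1 from 388 ± 10.8 to 177 ± 7.60 CPM. Both also respond to growth factors. Lgr5, Nkd2 and Rnf43 had 1, 1 and 8 counts over the WT libraries and 0, 0 and 2 over the KO libraries, and were not tested.

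**Figure D3:**
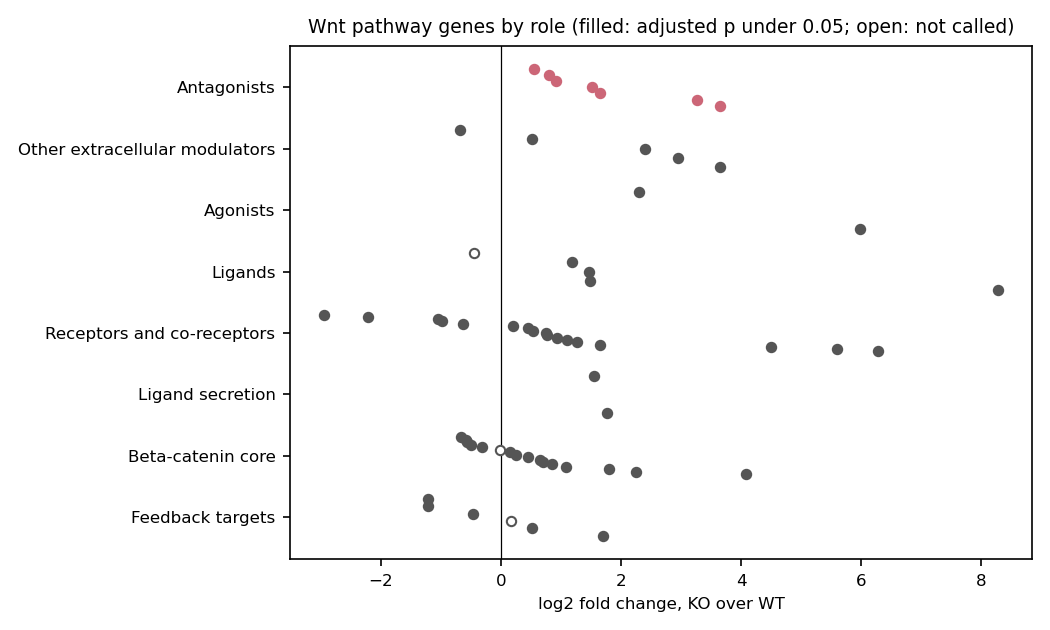
Fitted log2 fold change, KO over WT, of each tested gene of the Wnt pathway by role, with filled dots for genes with an edgeR adjusted p under 0.05 and open dots for the rest. The 7 antagonist genes lie right of 0, as do the tested agonist and ligand secretion genes. Of the ligand genes only Wnt9a, not called, lies left of 0. The other modulators, the receptors, the beta-catenin core and the feedback targets lie on both sides. Among all tested genes 37.7% were called higher and 37.5% lower. Sfrp4, Notum, Draxin, Rspo3, Wnt2b, Wnt4, Ror1 and Ror2 were tested only through the KO libraries, which all but fixed their direction.

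The antagonist genes sit apart from each other in the genome, on chromosomes 2, 3, 7, 8, 11 and 13. Sfrp2 and Dkk2 share chromosome 3, and Kremen1 and Notum share chromosome 11. Of the 16 nearest protein-coding genes on either side of the 8 members, 12 were analysed, and 5 rose, 4 fell and 3 were not called. Both neighbours of Sfrp2 rose: Tlr2, a receptor of innate immunity 61.96 kb away, by a log2 fold change of 1.66, and Dchs2 by 1.03. Epdr1, 3.18 kb from Sfrp4, rose too (0.82). Both neighbours of Frzb, Dnajc10 (−0.82) and Nckap1 (−0.40), fell. Kremen1 and its neighbour Znrf3, 14.8 kb away, moved in opposite directions. Znrf3 encodes a membrane ubiquitin ligase that removes Frizzled receptors, and it fell by 0.47 on the log2 scale. On either side of Dkk3, Usp47 rose (0.28) and Mical2 was not called (−0.09), and next to Notum Aspscr1 was not called (−0.01). Golga7 next to Sfrp1 fell (−0.20), Papss1 next to Dkk2 rose (0.64), and Emid1 next to Kremen1 was not called (0.87). Zmat4, Nme8, Gimd1 and Myadml2 were not analysed. These counts lie near the shares of all tested genes (37.7% higher, 37.5% lower).

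For the 4 called antagonist genes whose higher group reached 10 CPM, the protein-coding gene with the most similar profile was sought among 9187 genes. Likeness was the Euclidean distance of mean-centred log2 CPM over the 6 libraries. For the distance, CPM was taken on TMM-scaled library sizes with 0.01 added. The nearest gene was Stat3 for Sfrp2 (distance 0.0702), Nnmt for Dkk2 (0.0516), Kidins220 for Dkk3 (0.0228) and Ascc2 for Kremen1 (0.0166). Stat3, which encodes a transcription factor of cytokine signalling, stood at 74.1 CPM in WT and 226 CPM in KO. With 6 libraries in 2 groups, likeness of profile is mostly a like fold change.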

How the data were processed

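Poly(A)-selected RNA from 3 WT and 3 KO libraries was sequenced with a directional kit, per the labels' protocols. Reads were aligned with STAR 2.7.10b to GRCm38, per the submitters' processing notes, and the authors deposited raw read counts per Ensembl gene. For the counting program, its annotation and its strand setting nothing is given in the sources used here. Symbols, positions and merged exon lengths came from GENCODE M21 (GRCm38), in which 28230 of 28293 identifiers were found.

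Differences between KO and WT were tested with edgeR 4.0.16 (R 4.3.3), using TMM scaling, the default low-count filter (filterByExpr), the quasi-likelihood test and Benjamini-Hochberg adjustment over all tested genes. Positive fold changes are higher in KO, and an SE is the log2 fold change divided by the square root of the F statistic. The fit was tested on simulated data made from these counts, with 28293 genes simulated. CPM and RPKM were computed on library totals, apart from the distances between profiles and where TMM-scaled library sizes are named. Alternatives were other scalings and filters, DESeq2 1.42.0, limma-voom (limma 3.58.1), a robust fit, the replicate number as a block and leaving out each library. Leaving out mitochondrially encoded genes was an alternative chosen after seeing the data. Plots were made in matplotlib 3.10.9. The replicate numbers were not treated as pairs.

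The members, the pathway and marker lists and the naming rule were chosen with earlier results of these data known. Named were Tmpo, every member, up to 3 called genes a list with the smallest p and at least 1 CPM, genes that a small count points to, the nearest protein-coding genes, and the gene of most similar profile. Other genes named (Lrp6, Rspo3 counts, Kremen2, antisense partners, Draxin, Gsk3b, Csnk1a1, single markers) were chosen after their values were seen.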

Additional observations from a re-analysis of the deposited data

How the results depend on the processing

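Sfrp1, Sfrp2, Dkk2, Dkk3 and Kremen1 stayed higher in KO, with an adjusted p under 0.05, in each of 16 alternatives (edgeR, DESeq2 or limma-voom). Sfrp4 and Notum were called in each of the 15 that tested them, which shows little about their stability, since they pass the filter only through KO. When genes had to reach 1 CPM in 3 libraries, Sfrp4 and Notum were not tested, so 5 genes were called in place of 7. Leaving out each library in turn gave log2 fold changes of 1.45 to 1.53 for Sfrp2, 1.51 to 1.74 for Sfrp1, 0.89 to 0.94 for Dkk2, 0.75 to 0.83 for Dkk3, 0.48 to 0.57 for Kremen1, 2.75 to 3.60 for Notum and 3.07 to 4.93 for Sfrp4. The highest Sfrp4 value came without WT replicate 1, and the cause was not tested beyond the counts given above. The balance of all calls moved with the scaling, from 5678 higher and 5652 lower with TMM to 6181 higher and 5139 lower with library totals alone, with a shift of the median of all genes from 0.01 to 0.09. Without a low-count filter 1 ligand gene was called lower, where none was with it, and Frzb, then tested, was not called (log2 fold change 0.48, edgeR adjusted p = 0.768). In the beta-catenin core 8 to 10 genes were called higher when 1 library was left out, and 9 with no filter (Csnk1a1 was lost). Of the feedback targets 3 were higher with upper-quartile scaling or library totals alone, in place of 2. No pairing by replicate number was seen, though 3 libraries a group are too few to settle it. The correlations of same-numbered libraries were 0.15, −0.12 and 0.16, and 2 of 6 libraries correlated best with their own number. With the replicate block 11697 genes were called in place of 11330, and 7 antagonist genes rose as before. On TMM-scaled library sizes 2 of 16 mean levels moved by more than 1 SD, Dkk2 in KO (22.4 CPM) and Kremen1 in KO (52.5 CPM). Depth limits Frzb, Sfrp4 and Notum, whose WT counts were 3, 4 and 4 in all.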
